A study of Homo sapiens with 12 samples.

Results

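The NRF2 system and antioxidant genes described here are the 9 genes NFE2L2, KEAP1, NQO1, GCLC, GCLM, TXNRD1, SRXN1, HMOX1 and GSTP1. They were picked by gene symbol from the 60660 genes of each library, and all 9 were found, each on 1 row. LNCaP and 22Rv1 are human PCa cell lines, the first from a lymph node metastasis and still responsive to androgen, the second from a xenograft that came back after castration. Cells of each line were transfected with piR-4447944 mimic, a synthetic copy of a PIWI-interacting RNA, or with its negative control NC-mimic. The culture medium of all 4 groups held 10% CS-FBS, serum stripped of most androgen with charcoal, so the controls were androgen-deprived too. Each group had 3 mRNA libraries, 12 in all. The labels do not say that the libraries of a group came from separate cultures, and the study speaks of independent experiments without tying them to libraries. Unless each library was its own culture, p-values measure only the spread between these libraries, which may be technical. The transfection was not checked here, because mRNA counts do not measure the piRNA.

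NRF2, the protein of NFE2L2, is a transcription factor that switches on genes for antioxidant and detoxifying enzymes. KEAP1 binds NRF2 and hands it to the ubiquitin ligase CUL3 for destruction, and oxidants or electrophiles that modify KEAP1 let NRF2 build up and reach the antioxidant response element of its targets. Since this control acts on the protein, the NFE2L2 transcript does not report NRF2 activity. In prostate cancer the best known gene of this set is GSTP1, whose promoter is methylated and whose RNA is lost in most tumours.

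The libraries held 12161091 to 22179601 expected counts each, and the members took between 0.0697% and 0.220% of the counts of a library. The luminal prostate markers EPCAM, FOLH1, HOXB13, KLK2, KLK3, KRT8, KRT18 and TMPRSS2 were found in all 12 libraries, with the lowest level at 10.7 TPM for TMPRSS2. Of the markers of other cell types, PTPRC, CD3E, KRT5, KRT14, TP63 and PECAM1 stayed at 0.92 TPM or less and COL1A2, PDGFRB and VWF at 1.86 TPM or less, while CD68 reached 6.02 TPM, CHGA 14.0, COL1A1 42.9 and SYP 66.9 TPM. TPM, the deposited transcript levels, are scaled for gene length and depth and are used below to compare levels between genes. Both replicate 3 libraries of 22Rv1 stood apart from the other libraries of their groups. Against the mean of replicates 1 and 2, 12.5% of genes in replicate 3 with NC-mimic and 16.5% in replicate 3 with piR-4447944 mimic were over 2-fold higher in TPM, while the same share was between 4.10% and 4.51% for replicate 3 of the LNCaP groups. The mitochondrially encoded genes held 4.37% of the TPM of 22Rv1 replicate 3 with piR-4447944 mimic and between 8.74% and 11.9% in the other 11 libraries. The part of these differences in the results below was not tested, so the comparisons that use these 2 libraries are given with and without them.

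The antioxidant response element is written TGACNNNGC, and it was searched on both strands in RefSeq promoters (build GRCh38.p14) of 300 bases, 250 before and 50 after the start of the gene. The letters occurred in 4687 of 35116 promoters, or 13.3%. Counted by gene this was 4384 of 27305, or 16.1%. The members had 11 promoters of 8 genes, and 5 promoters held the letters. These were 1 each of GCLM, GSTP1 and KEAP1 and both of TXNRD1. NFE2L2, GCLC, NQO1 and SRXN1 had no match in these 300 bases, and sites farther away were not searched. HMOX1 had no entry. The promoter of GSTP1 at chr11:67583562-67583861 on the plus strand is shown whole because GSTP1 was the member without RNA. It held 36 CpG dinucleotides, against a median of 14 over all promoters. Among members with RNA, SRXN1 held 46, GCLM 41, KEAP1 36 and 40, and NFE2L2 35 and 39. GCLC held 32, TXNRD1 27 and 12, and NQO1 14. A count of 36 was thus not particular to GSTP1. The match in capitals, TGACTCAGC, lay 66 bases before the start used for this promoter and is found in 0.561% of promoters. By the span of the gene given below, this match lies inside GSTP1.
GSTP1: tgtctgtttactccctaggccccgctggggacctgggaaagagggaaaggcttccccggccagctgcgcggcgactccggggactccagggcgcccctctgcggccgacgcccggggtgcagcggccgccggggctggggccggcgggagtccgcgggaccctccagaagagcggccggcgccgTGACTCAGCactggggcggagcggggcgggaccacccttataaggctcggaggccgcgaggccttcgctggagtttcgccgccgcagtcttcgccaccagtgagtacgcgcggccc

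Each of the other matches is shown with 16 bases on either side, 5′ to 3′ along the gene, and with the match in capitals. GCLM and TXNRD1 are shown because their RNA varied between libraries, and KEAP1 because it controls NRF2. A match on the opposite strand reads as the reverse complement. The GCLM window is chr1:93909440-93909480 on the minus strand. The TXNRD1 windows on the plus strand are chr12:104215664-104215704 and chr12:104215755-104215795 in the first promoter and chr12:104286914-104286954 in the second. The KEAP1 windows are chr19:10502801-10502841 and chr19:10502778-10502818 on the minus strand. Both are in the second of its 2 promoters, which lies inside the span of the gene given below. The second promoter of TXNRD1 also lies inside the span of its gene. The matches are descriptions of sequence and no sign of binding.
GCLM: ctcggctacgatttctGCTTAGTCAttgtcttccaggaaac
TXNRD1, first: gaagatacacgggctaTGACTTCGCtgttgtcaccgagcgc
TXNRD1, second: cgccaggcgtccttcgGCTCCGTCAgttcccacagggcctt
TXNRD1, other start: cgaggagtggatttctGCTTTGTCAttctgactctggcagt
KEAP1, first: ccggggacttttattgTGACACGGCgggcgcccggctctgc
KEAP1, second: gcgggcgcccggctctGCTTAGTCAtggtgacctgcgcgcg

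GSTP1, a glutathione S-transferase that couples glutathione to electrophiles, had 0 expected counts in all 12 libraries. A count of 0 allows up to 3 counts, which is between 0.135 and 0.247 CPM (counts scaled to a common library size) depending on the depth of the library. This limit covers counting error only. GSTP1 (11:67583742-67586656 in GENCODE v44, hg38, plus strand) could therefore be tested in no comparison, and 8 of the 9 members passed the filter on low counts in each of them. The other 8 members were found in every library with at least 224 expected counts.

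The levels of the members were ordered by TPM in each group. In LNCaP with NC-mimic the order ran from TXNRD1 (258 ± 6.62 TPM, SD, n = 3) over NQO1 (165 ± 13.7), SRXN1 (72.2 ± 0.747), KEAP1 (65.6 ± 4.14), NFE2L2 (41.8 ± 7.07), GCLM (20.8 ± 0.838) and HMOX1 (14.8 ± 1.80) to GCLC (10.5 ± 1.21), and no neighbours in this order overlapped. With piR-4447944 mimic the first 5 kept their places, and the last 3, HMOX1, GCLM and GCLC, overlapped with their neighbours. In 22Rv1 the first 5 members in either group overlapped with the next in the order, and NQO1 with NC-mimic was at 214 ± 305 TPM (SD, n = 3).

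**Figure D1:**
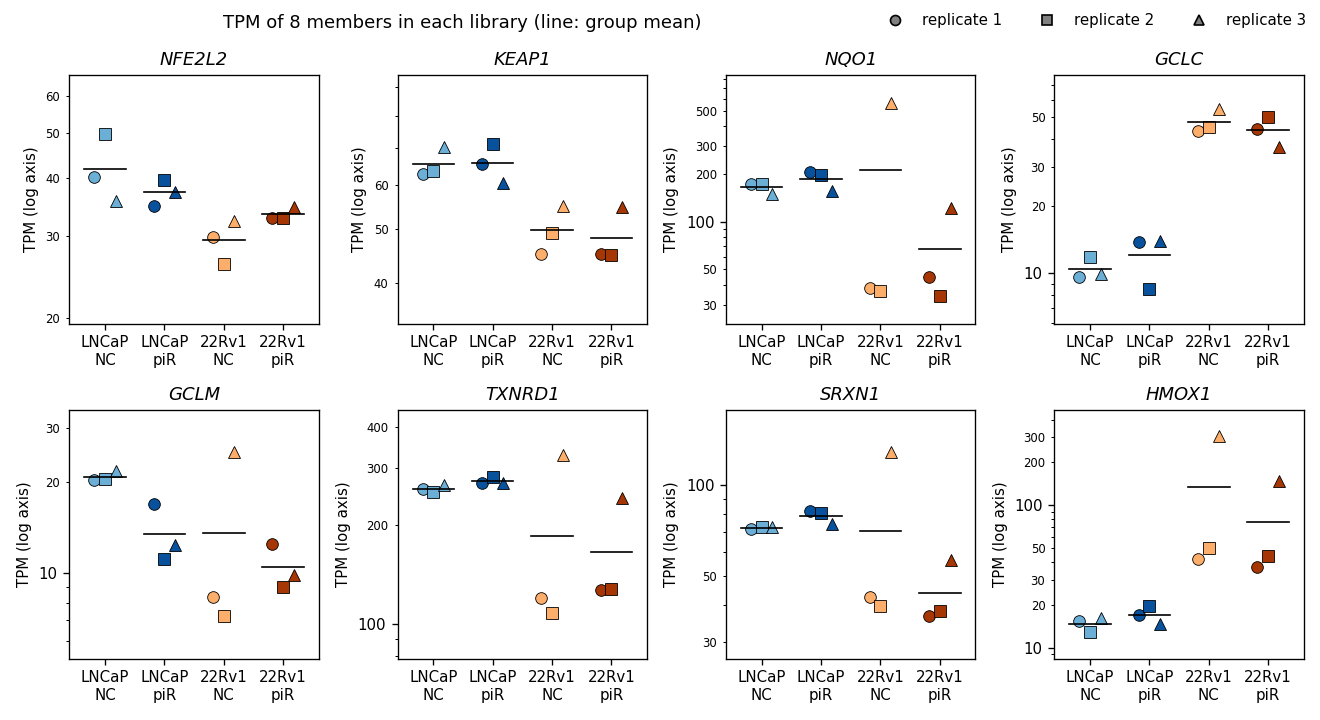
TPM of 8 members on log axes, with 1 point per library, the shape giving the replicate number and the line the group mean of 3 libraries. The triangles of 22Rv1 (replicate 3) lie above the other 2 libraries of their group for NQO1, TXNRD1, SRXN1 and HMOX1, and GCLC is higher in all 6 libraries of 22Rv1 than in all 6 of LNCaP.

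The 2 genes of the NRF2 switch, NFE2L2 and KEAP1, were lower in every library of 22Rv1 than in every library of LNCaP with the same mimic, as the lines did not overlap for 63.1% of all genes tested under NC-mimic and 59.9% under piR-4447944 mimic. NFE2L2 (2:177218667-177392756, minus strand) was at 40.1, 49.6 and 35.8 TPM in LNCaP with NC-mimic and at 34.9, 39.7 and 37.4 TPM with piR-4447944 mimic. The levels in 22Rv1 were 29.9, 26.1 and 32.4 TPM with NC-mimic and 32.8, 32.8 and 34.6 TPM with piR-4447944 mimic, and under the second mimic the highest library of 22Rv1 came close to the lowest of LNCaP.

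KEAP1 (19:10486125-10503558, minus strand) was at 62.9, 63.6 and 70.4 TPM in LNCaP with NC-mimic and at 65.5, 71.3 and 60.6 TPM with piR-4447944 mimic. The levels in 22Rv1 were 45.0, 49.2 and 54.9 TPM and 45.0, 44.9 and 54.8 TPM, with a wider gap to LNCaP. The ratio of NFE2L2 to KEAP1 in TPM was between 0.508 and 0.780 in LNCaP and between 0.531 and 0.731 in 22Rv1, so the lines overlapped in this ratio.

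NQO1 (16:69706996-69726668, minus strand), a quinone reductase and the usual reporter of NRF2 activity, had the widest range of the members in absolute TPM, though not in fold. In LNCaP it was at 173, 173 and 149 TPM with NC-mimic and at 208, 196 and 157 TPM with piR-4447944 mimic. In 22Rv1 it was at 38.2, 36.3 and 566 TPM with NC-mimic and at 44.9, 34.0 and 122 TPM with piR-4447944 mimic. Replicate 3 with NC-mimic was thus above every library of LNCaP, and the other 5 libraries of 22Rv1 were below all of them.

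TXNRD1 (12:104215779-104350307, plus strand), the cytosolic thioredoxin reductase, was at 258, 252 and 265 TPM in LNCaP with NC-mimic and at 270, 280 and 270 TPM with piR-4447944 mimic. The 22Rv1 libraries held 120, 108 and 328 TPM and 127, 128 and 243 TPM. SRXN1 (20:646615-653200, minus strand), the sulfiredoxin that repairs overoxidised peroxiredoxins, was at 71.4, 72.5 and 72.8 TPM and at 81.8, 80.5 and 74.0 TPM in LNCaP. In 22Rv1 it was at 42.5, 39.7 and 129 TPM with NC-mimic and at 36.7, 38.1 and 56.2 TPM with piR-4447944 mimic. Both genes were high in the same 2 libraries of 22Rv1 as NQO1.

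GCLC and GCLM encode the catalytic and the modifier subunit of glutamate-cysteine ligase, the first step of glutathione synthesis. GCLC (6:53497341-53616970, minus strand) was at 9.66, 11.9 and 9.95 TPM and at 13.8, 8.50 and 14.0 TPM in LNCaP, against 43.5, 45.3 and 54.3 TPM and 44.4, 50.2 and 36.8 TPM in 22Rv1. GCLM (1:93885199-93909456, minus strand) was at 20.2, 20.4 and 21.7 TPM and at 16.9, 11.1 and 12.4 TPM in LNCaP, against 8.34, 7.25 and 24.9 TPM and 12.4, 9.03 and 9.87 TPM in 22Rv1. GCLC was higher in 22Rv1 in every library, while the lines overlapped for GCLM.

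HMOX1 (22:35380361-35394214, plus strand), the haem oxygenase that frees iron and biliverdin from haem, was at 15.3, 12.8 and 16.3 TPM in LNCaP with NC-mimic and at 17.1, 19.5 and 14.8 TPM with piR-4447944 mimic. In 22Rv1 it was at 42.3, 50.5 and 308 TPM with NC-mimic and at 36.7, 43.9 and 149 TPM with piR-4447944 mimic. All libraries of 22Rv1 were above all of LNCaP, and replicate 3 was the highest of its group under both mimics.

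The levels of 4 of the NRF2 targets were highest in replicate 3 of 22Rv1 under both mimics. With NC-mimic, 5 of the 8 members, against 12.5% of all genes, were over 2-fold above the mean of replicates 1 and 2, namely NQO1 (15.2-fold), HMOX1 (6.65-fold), GCLM (3.20-fold), SRXN1 (3.13-fold) and TXNRD1 (2.87-fold). With piR-4447944 mimic 2 of 8 were, against 16.5% of all genes, namely HMOX1 (3.70-fold) and NQO1 (3.09-fold), and TXNRD1 (1.90-fold) followed. NFE2L2, KEAP1 and GCLC were between 1.16 and 1.22 times the mean of the other 2 libraries with NC-mimic and between 0.778 and 1.22 times it with piR-4447944 mimic. In the LNCaP groups replicate 3 was between 0.779 and 1.26 times the mean of the other libraries for all 8. These are descriptions of 1 library each, and no test was made.

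Of 61 other listed genes of the pathway with a ratio, 13 (21.3%, against 12.5% of all genes) were over 2-fold higher in replicate 3 with NC-mimic. With piR-4447944 mimic 11 of 61 were, a share near the 16.5% of all genes. OSGIN1, an oxidative stress response gene, was 9.76-fold higher in the first and 4.39-fold higher in the second. SLC7A11, the cystine transporter that feeds glutathione synthesis, was 3.17-fold and 2.34-fold higher. The peroxiredoxin PRDX1 was at 438, 423 and 1297 TPM in 22Rv1 with NC-mimic and at 401, 404 and 410 TPM with piR-4447944 mimic, so it stood out in the first group and not in the second. CBR1, EPHX1 and AKR1C2, which are detoxifying enzymes, were 3.61-fold, 3.32-fold and 3.78-fold higher in replicate 3 with NC-mimic, and between 1.28-fold and 1.80-fold with piR-4447944 mimic. SESN2 and MAFF, a stress-induced sestrin and a small MAF partner of NRF2, were 2.64-fold and 2.59-fold higher with NC-mimic and 5.10-fold and 4.05-fold higher with piR-4447944 mimic. Whether the 2 libraries share a source of these differences was not tested.

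**Figure D2:**
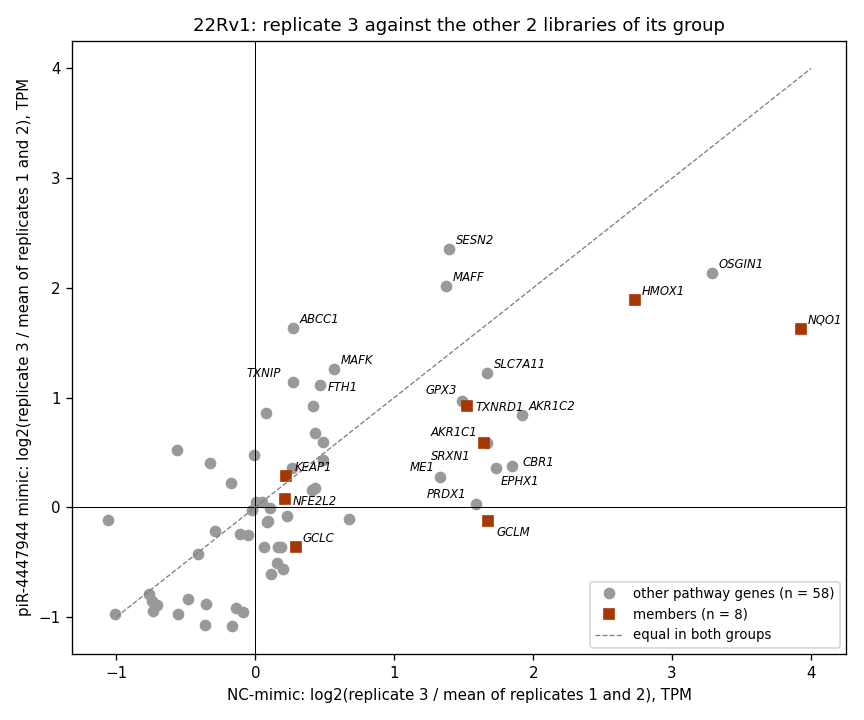
Each point is 1 gene of 22Rv1, with the log2 ratio of replicate 3 to the mean of replicates 1 and 2 (TPM) for NC-mimic on the x axis and for piR-4447944 mimic on the y axis. Squares are the 8 members and circles 58 other pathway genes with at least 1 TPM in replicates 1 and 2. NQO1 lies farthest to the right of the members, HMOX1 highest, and GCLM is 3.20-fold up on the x axis and 0.919 times on the y axis.

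The study chose both lines as androgen-sensitive, though it also lists 22Rv1 as androgen-independent. The line comparison with NC-mimic asks how the members differ between the 2 lines. It was made with edgeR's quasi-likelihood test on the expected counts, and a gene was called where the adjusted p (Benjamini-Hochberg, over all genes) was under 0.05. With all libraries 3 of 8 members were called, against 58.4% of 17497 genes. GCLC was 5.16-fold higher in 22Rv1 (log2 fold change 2.37, SE 0.11, edgeR adjusted p = 1.57e-06), and HMOX1 was 9.87-fold higher (3.30, SE 0.76, edgeR adjusted p = 0.00610). These were 2 members among the higher calls, which took 30.9% of all genes. NFE2L2 was lower (log2 fold change -0.43, SE 0.14, edgeR adjusted p = 0.0312), the 1 member among the lower calls, which took 27.5% of all genes. KEAP1 (-0.29, SE 0.11, edgeR adjusted p = 0.0505) just missed the threshold. NQO1 had a log2 fold change of 0.47 with an SE of 0.95. The exact two-sided permutation test on TPM gave 0.1, the smallest p that 3 against 3 libraries allow, for GCLC, HMOX1, NFE2L2 and KEAP1. These 4 of 8 members without overlap stand beside 63.1% of all genes.

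Without replicate 3 of 22Rv1 all 8 members were called, against 66.2% of 18304 genes. Then 6 members were lower in 22Rv1, against 32.5% of all genes, and 2 were higher, against 33.7%. NQO1 was lower by 2.11 on the log2 scale (fold 0.232, SE 0.11, edgeR adjusted p = 1.36e-08), so its direction turned. TXNRD1 (-0.90, SE 0.08), SRXN1 (-0.76, SE 0.09) and GCLM (-0.60, SE 0.13) also passed the test, as did KEAP1 (-0.38, SE 0.10) and NFE2L2 (-0.50, SE 0.14). HMOX1 was 3.36-fold higher in place of 9.87-fold, and GCLC was 4.95-fold higher.

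The same comparison in the libraries with piR-4447944 mimic used other samples of both lines. With all libraries 6 of 8 members were called, against 52.4% of 17283 genes, 2 higher (28.2% of all genes) and 4 lower (24.2%). GCLC was 4.78-fold higher (log2 fold change 2.26, SE 0.20, edgeR adjusted p = 0.000184) and HMOX1 4.71-fold higher (2.23, SE 0.54, edgeR adjusted p = 0.0123). NQO1 was lower (-1.43, SE 0.46, edgeR adjusted p = 0.0361), as were SRXN1 (-0.84, SE 0.17, edgeR adjusted p = 0.00613), KEAP1 (-0.41, SE 0.10, edgeR adjusted p = 0.0107) and NFE2L2 (-0.27, SE 0.10, edgeR adjusted p = 0.0492). GCLM (-0.33, SE 0.12, edgeR adjusted p = 0.0538) and TXNRD1 (-0.57, SE 0.28, edgeR adjusted p = 0.125) were not called. Leaving out LNCaP replicate 2 or replicate 3 brought the count down to 3 of 8.

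Without replicate 3 of 22Rv1 all 8 members were called here too, against 69.5% of 17988 genes, with 2 higher (35.4% of all genes) and 6 lower (34.0%). NQO1 was then lower by 2.22 on the log2 scale (SE 0.12) and TXNRD1 by 0.98 (SE 0.06). HMOX1 was 2.48-fold and GCLC 5.46-fold higher. GCLC and HMOX1 were called higher and NFE2L2 lower in 22Rv1 in both comparisons, with and without replicate 3. The call of NFE2L2 was lost with the replicate block (edgeR adjusted p = 0.0551 under NC-mimic and 0.115 under piR-4447944 mimic). With NC-mimic it was also lost without replicate 1 or replicate 2 of either line (edgeR adjusted p from 0.0602 to 0.0969). With piR-4447944 mimic it was lost under every alternative other than DESeq2's size factors and leaving out 22Rv1 replicate 3 (adjusted p by edgeR, DESeq2 or limma from 0.0645 to 0.279). HMOX1 lost its call with piR-4447944 mimic without LNCaP replicate 3 (edgeR adjusted p = 0.0552). Line, culture and any batch cannot be told apart in these comparisons, and a share of members called that is near that of all genes is no result about the members.

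**Figure D3:**
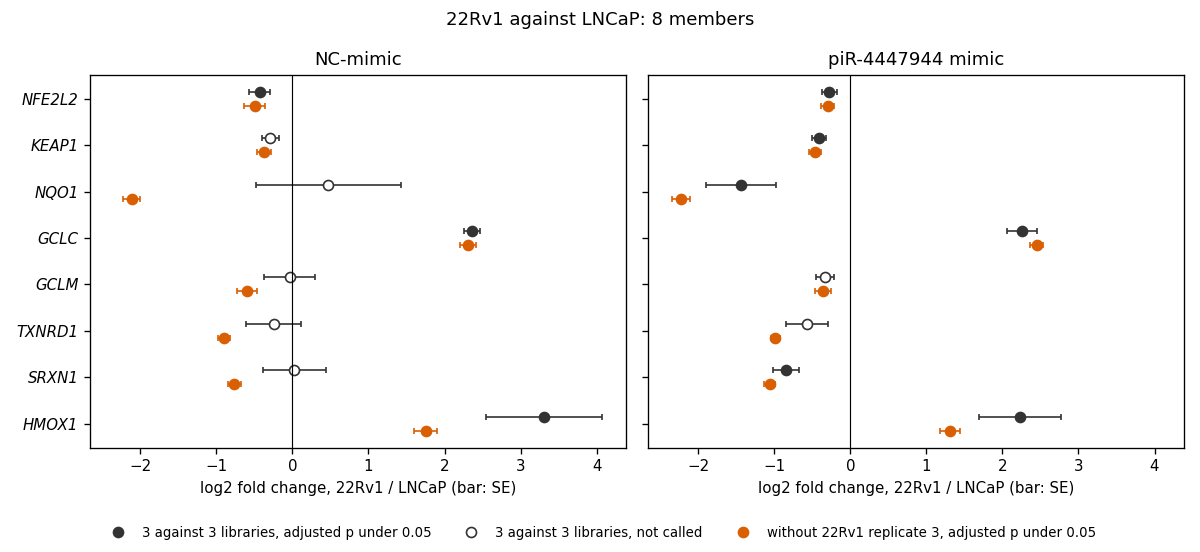
Log2 fold change of 22Rv1 over LNCaP for 8 members (bars: SE), with NC-mimic on the left and piR-4447944 mimic on the right. Filled points had an adjusted p under 0.05, and orange points are the fits without 22Rv1 replicate 3, where NQO1 is at -2.11 and -2.22.

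The mimic comparison asks whether piR-4447944 changes the members in androgen-deprived cells. In LNCaP 0 of 8 members were called by edgeR, against 0% of 16244 genes, and 0 of 8 had an unadjusted p under 0.05, against 433 of all genes. DESeq2 and limma called 0 of 8 as well. The log2 fold changes were 0.17 (SE 0.10) for NQO1, 0.10 (SE 0.06) for TXNRD1, 0.13 (SE 0.07) for SRXN1, 0.23 (SE 0.13) for HMOX1 and -0.19 (SE 0.11) for NFE2L2. They were -0.08 (SE 0.09) for GCLM, -0.04 (SE 0.10) for GCLC and -0.02 (SE 0.08) for KEAP1. By edgeR no member met the rule of the study (a log2 fold change beyond 0.2 in either direction at an unadjusted p below 0.05), which 361 genes or 2.22% met in this line.

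In TPM, 3 of the 8 members did not overlap between the mimics in LNCaP, as did 8.40% of all genes tested. TXNRD1 (258 against 273 TPM) and SRXN1 (72.2 against 78.8 TPM) were higher with piR-4447944 mimic, and GCLM (20.8 against 13.5 TPM) was lower, each with an exact permutation p of 0.1, the smallest possible. The expected counts of GCLM were between 37.1 and 41.0 CPM with NC-mimic and between 33.8 and 39.0 CPM with piR-4447944 mimic. The effective length, the length RSEM gives the gene from the isoforms it estimates, was between 2162 and 2705 bases with NC-mimic and between 3053 and 4062 bases with piR-4447944 mimic. In TPM the groups of GCLM did not overlap, while in CPM they did. On log2(TPM + 1) limma gave GCLM -0.61 (SE 0.15) at an unadjusted p by limma of 0.00362, with a limma adjusted p of 0.9995. GCLM thus met the rule of the study in that fit, as did 578 of 15608 genes.

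In 22Rv1 0 of 8 members were called by edgeR, against 0% of 16898 genes, and DESeq2 and limma called 0 of 8. By edgeR 0 of 8 had an unadjusted p under 0.05, against 250 of all genes. The rule of the study was met by no member and by 250 genes or 1.48%. The SE of the log2 fold change was larger than in LNCaP for every member, and reached 1.12 for NQO1 (log2 fold change -1.77) and 0.87 for HMOX1 (-0.88). SRXN1 had -0.76 (SE 0.47), GCLM -0.40 (SE 0.37), TXNRD1 -0.25 (SE 0.46), GCLC -0.17 (SE 0.21), KEAP1 -0.17 (SE 0.13) and NFE2L2 -0.05 (SE 0.13). Without both replicate 3 libraries NQO1 was at 0.06 (SE 0.14), TXNRD1 at 0.01 (SE 0.07) and SRXN1 at -0.17 (SE 0.10). Without replicate 3 of NC-mimic alone NQO1 was at 0.82 (SE 0.54), so its sign was set by which of these libraries entered.

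In 22Rv1 the replicate 3 libraries deviated together (r = 0.355), while replicates 1 and 2 were about as alike across numbers as within them. The mimics can be set side by side within a number, but for replicates 1 and 2 this matching is arbitrary. The log2 ratio of the TPM of NQO1 was 0.23, -0.10 and -2.22 in replicates 1, 2 and 3. HMOX1 was below NC-mimic in 3 of 3 (-0.20, -0.20 and -1.05), as was SRXN1 (-0.21, -0.06 and -1.20). For HMOX1 this depends on the matching, as replicate 2 with piR-4447944 mimic (43.9 TPM) was above replicate 1 with NC-mimic (42.3 TPM). SRXN1 was lower in either matching. The blocked fit uses the same matching by number. With the replicate number as a block HMOX1 was at -0.53 (SE 0.21, unadjusted p by edgeR 0.0416, which meets the rule of the study, edgeR adjusted p = 0.869) and SRXN1 at -0.55 (SE 0.24, edgeR adjusted p = 0.869), and 0 of 8 members were called. In that fit 420 of 16898 genes met the rule. NFE2L2 was the 1 member whose TPM did not overlap between the mimics, against 8.81% of all genes tested, at 29.5 and 33.4 TPM (exact permutation p = 0.1, the smallest possible). Its effective length was between 2060 and 2170 bases with NC-mimic and between 1884 and 1896 bases with piR-4447944 mimic, while its log2 fold change from the counts was -0.05.

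**Figure D4:**
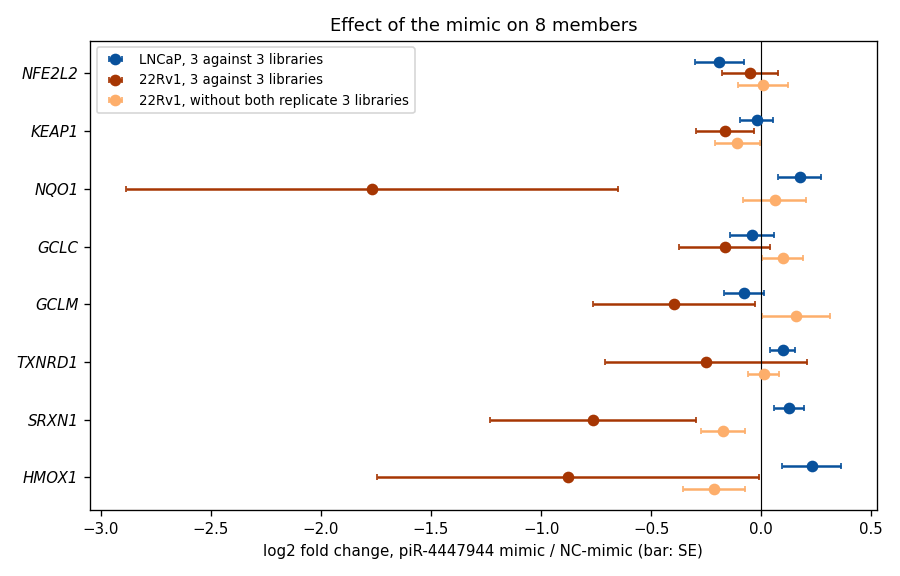
Log2 fold change of piR-4447944 mimic over NC-mimic for 8 members (bars: SE) in LNCaP, in 22Rv1, and in 22Rv1 without both replicate 3 libraries. The widest bars belong to NQO1 and HMOX1 in 22Rv1, and NQO1 moves from -1.77 to 0.06 without the replicate 3 libraries.

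The effect of the mimic did not differ between the lines for any member past the threshold (0 of 8, against 0% of 18720 genes, edgeR interaction term), and the mean effect over both lines called 0 of 8 members (0% of 18720 genes). The lowest unadjusted p of a member was 0.113 for the difference and 0.205 for the mean, and DESeq2 and limma called 0 of 8 in each. Without both replicate 3 libraries of 22Rv1 edgeR again called 0 of 8 in each. For the difference, where 1184 of 19077 genes had an unadjusted p under 0.05, 2 members did. These were SRXN1 (-0.31, SE 0.10, unadjusted p by edgeR 0.00925, edgeR adjusted p = 0.715) and HMOX1 (-0.45, SE 0.21, unadjusted p by edgeR 0.0445, edgeR adjusted p = 0.799). With the replicate block the same 2 members had -0.68 (SE 0.28, unadjusted p by edgeR 0.0360) and -0.77 (SE 0.27, unadjusted p by edgeR 0.0212), each with an edgeR adjusted p of 0.886. In that fit 852 of 18720 genes had an unadjusted p under 0.05. A value below 0 is a lower effect of the mimic in 22Rv1 than in LNCaP. NEFH, the gene the study follows, was at 0.03 to 0.14 TPM in LNCaP, below all 8 members with RNA. Its expected counts there were 7, 7 and 4 with NC-mimic and 1, 3 and 3 with piR-4447944 mimic. NEFH did not pass the filter on low counts in LNCaP, so it was not tested in that line alone. In 22Rv1 NEFH was at 11.2 to 20.2 TPM, with a log2 fold change of -0.45 (SE 0.23, edgeR adjusted p = 0.999), and -0.16 (SE 0.17) without both replicate 3 libraries. Its mean effect over both lines was -0.54 (SE 0.19, unadjusted p by edgeR 0.0155, edgeR adjusted p = 0.9995), and -0.25 (SE 0.18) without those libraries. Few of the counts behind this mean came from LNCaP. The study picked NEFH from genes that fell in both lines at an unadjusted p and a log2 fold change beyond 0.2. It reported the fall by RT-qPCR and western blot too. NEFH rose when piR-4447944 was knocked down in LNCaP-AI, an androgen-independent line derived from LNCaP. Luciferase, RNA pull-down and PIWIL2 immunoprecipitation assays were also reported.

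The pathway around the members was described with 67 other genes in 7 lists. With NC-mimic 43 of 60 tested genes (58.4% of all genes) were called between the lines, 23 higher (30.9% of all genes) and 20 lower (27.5%) in 22Rv1, with a median log2 fold change of 0.06 beside 0.01 over all genes. Without replicate 3 of 22Rv1 it was 47 of 60 (66.2% of all genes), with a median of -0.07 beside 0.00273. With piR-4447944 mimic it was 40 of 60 (52.4% of all genes), 20 in each direction, with a median of -0.08 beside 0.04, and 51 of 60 without replicate 3 (69.5% of all genes). One gene with 0 counts in a group was set at its bound of 3 counts over the group in either comparison, which left the medians as they were.

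Glutathione enzymes were called in both directions. Of 14 tested genes of glutathione synthesis and use, 8 were higher (30.9% of all genes) and 4 lower (27.5%) in 22Rv1 with NC-mimic, and 8 and 5 without replicate 3 of 22Rv1. With piR-4447944 mimic there were 6 higher (28.2% of all genes) and 3 lower (24.2%), and 8 and 5 without replicate 3. GSTM4 was at 28.5 TPM in 22Rv1 and listed at 0 in all 3 libraries of LNCaP, and GSTM2 was at 30.7 TPM against at most 0.15 TPM, while GSTM3 was at 29.4 TPM against 238 TPM (log2 fold change -2.63, SE 0.19, edgeR adjusted p = 1.67e-05). GSTA1 was also lower in 22Rv1 (-4.32, SE 0.67, edgeR adjusted p = 0.000816). The glutathione S-transferases GSTM2, GSTM3 and GSTM4 are close paralogs, so reads could be split between them by the counting. GSTM2 and GSTM4 were called with piR-4447944 mimic too, at 34.2 and 23.8 TPM in 22Rv1.

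Export and detoxification genes also split between the lines. Among the 11 tested genes, 22Rv1 had 6 higher calls and 3 lower ones under either mimic, with and without replicate 3, against 30.9% and 27.5% of all genes with NC-mimic and 28.2% and 24.2% with piR-4447944 mimic. The glutathione conjugate exporter ABCC2 was higher (log2 fold change 6.26, SE 0.37, edgeR adjusted p = 5.85e-06) and ABCC4 lower (-5.06, SE 0.35, edgeR adjusted p = 1.18e-05) with NC-mimic. With piR-4447944 mimic ABCC2 had 8.20 (SE 0.35), ABCC4 -5.34 (SE 0.26), GSTA1 -3.65 (SE 1.19, listed at 0 in replicates 1 and 2 of 22Rv1) and the epoxide hydrolase EPHX1 -3.02 (SE 0.24). EPHX1 was at 30.1 TPM in 22Rv1 and at 272 TPM in LNCaP with this mimic.

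The smaller lists were mixed with NC-mimic. In the NADPH supply 1 of 6 genes was higher and 3 lower, in haem and iron 2 of 6 higher and 3 lower, and among NRF2 partners and control genes 3 of 8 higher and 3 lower. In the thioredoxin system and peroxiredoxins 1 of 11 was higher and 3 lower, and of the 4 superoxide and catalase genes 2 were higher and 1 was lower. In the piR-4447944 mimic libraries the calls of these lists in the order given were 1 higher and 4 lower, 2 and 3, 3 and 3, 0 and 3, and 2 and 1. Without replicate 3 of 22Rv1 they were 1 and 3, 2 and 3, 3 and 3, 2 and 5, and 2 and 1 with NC-mimic and 1 and 4, 3 and 3, 4 and 4, 1 and 5, and 2 and 2 with piR-4447944 mimic. The shares of all genes are those given for the whole pathway.

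The mimic called 0 of 56 pathway genes in LNCaP and 0 of 60 in 22Rv1 by edgeR. At an unadjusted p under 0.05 were 433 of 16244 genes in LNCaP and 250 of 16898 in 22Rv1, and of the pathway genes 3 and 1. In LNCaP these were SLC7A11 (log2 fold change 0.26, SE 0.06, p by edgeR 0.00126), the ferritin heavy chain FTH1 (0.21, SE 0.06, p by edgeR 0.00279) and ABCC4 (-0.18, SE 0.06, p by edgeR 0.0147), each with an edgeR adjusted p of 0.999. In 22Rv1 it was the quinone reductase NQO2 (-0.37, SE 0.14, edgeR adjusted p = 0.999). The median log2 fold change was 0.02 in LNCaP and -0.14 in 22Rv1, beside -0.00272 and -0.00515 over all genes. For the difference between the lines and the mean over both, 0 of 62 were called. At an unadjusted p under 0.05 were 610 and 340 of 18720 genes, and of the pathway genes 4 and 2. For the difference these were led by ABCC2 (1.93, SE 0.65), TKT (-0.46, SE 0.20) and GSR (-0.45, SE 0.18), and for the mean they were SOD3 (0.42, SE 0.17) and GPX4 (-0.15, SE 0.07). Without both replicate 3 libraries of 22Rv1 edgeR called 0 pathway genes in the 22Rv1 mimic comparison, the difference and the mean, with 4, 6 and 3 at an unadjusted p under 0.05. Over all genes these were 843 of 17101, 1184 of 19077 and 568 of 19077. NQO2 was then at -0.24 (SE 0.12), ABCC2 at 2.02 (SE 0.73), SOD3 at 0.31 (SE 0.17) and GPX4 at -0.10 (SE 0.05).

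Across the 12 libraries the genes most like NQO1, by Pearson correlation of log2(CPM + 1) over 16718 genes with a mean of at least 1 TPM, were SRXN1 (r = 0.98), TBX3 (r = 0.98) and ME2 (r = 0.98). After the group means were taken out they were UGDH, the enzyme that makes UDP-glucuronate (r = 0.99), MKX (r = 0.99) and SRXN1 (r = 0.99). UGDH was between 78.4 and 304 TPM in 22Rv1 with NC-mimic. With group means out, NQO1 went with TXNRD1 (r = 0.97), HMOX1 (r = 0.96) and GCLM (r = 0.91) but less with NFE2L2 (r = 0.42) and GCLC (r = -0.14). The genes most like NFE2L2 were ATP6AP2, an accessory part of the proton pump of lysosomes (r = 0.96), RAD17 (r = 0.93) and AC138392.1 (r = 0.92), and after the group means were taken out HMGN2P46 (r = 0.96), ATP6AP2 (r = 0.96) and AL138478.1 (r = 0.90). The points share their library, line and depth. Over the 10 libraries other than replicate 3 of 22Rv1, with group means out, NQO1 had r = 0.29 with SRXN1 and 0.70 with TXNRD1. It had -0.10 with HMOX1, 0.32 with GCLM, 0.58 with UGDH and 0.28 with MKX. With group means out, its likeness to most of these genes thus rested on the 2 libraries left out. NFE2L2 kept r = 0.98 with ATP6AP2 in this measure over the same 10 libraries. With group means kept, NQO1 had r = 0.98 with SRXN1, 0.97 with TBX3 and 0.99 with ME2 over these 10 libraries. GSTP1, at 0 throughout, has no correlation.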

How the data were processed

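mRNA was sequenced in 12 libraries, 3 for each of 2 cell lines and 2 mimics. Per the submitters' processing notes, the authors used STAR 2.7.1a, RSEM 1.3.0, R 4.1.1 and DESeq2 1.34.0 with hg38. Trimming, strand and read length were not given in the sources used here. The authors deposited expected counts (estimated reads per gene, not normalized, with reads of several genes divided between them) and TPM, which are scaled for effective length and hold no depth. Without strand, reads of NFE2L2, GCLC, NQO1 and TXNRD1 cannot be told apart from those of the antisense genes that GENCODE v44 lists over them. NFE2L2, GCLC, TXNRD1, KEAP1 and SRXN1 also overlap genes on their own strand, whose reads strand would not separate.

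After rounding of the expected counts, the tests used edgeR 4.0.16 under R 4.3.3 (filterByExpr, TMM, glmQLFit, glmQLFTest), each comparison on its own 6 libraries and the difference and mean on all 12, with Benjamini-Hochberg adjustment over all genes. SE came from the estimate and the test statistic. The depth of 12161091 to 22179601 counts per library sets the counting error. Exact permutation tests used TPM. The scripts were tested on simulated data. Alternatives were DESeq2's size factors, other low-count filters, a replicate block, DESeq2 1.42.0, limma 3.58.1 on log2(TPM + 1) and log2(TPM + 0.1), leaving out libraries (for the correlations chosen after seeing the data), all 12 libraries in 1 fit, and the rule of the study.

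The correlation of the deviations from the group means was 0.198, 0.167 and 0.355 for replicates 1, 2 and 3 of 22Rv1, so the blocked fit treats them as pairs, a reading that rests on the values and not on the labels. Replicate 1 with NC-mimic had 0.191 with replicate 2 of the other mimic, and replicate 2 had 0.117 with replicate 1, so replicates 1 and 2 were about as alike across numbers as within them. It was under 0.1 for at least 1 number in LNCaP and between the lines.

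The members and lists were chosen with earlier results of these data known. The text names the 9 members throughout. Of the 67 pathway genes it names the 3 higher and 3 lower with the largest change among those called with a mean of at least 1 TPM, or the 2 higher and 2 lower with an unadjusted p under 0.05 where none was called, then the 3 genes most like NQO1 and NFE2L2, and NEFH. The pathway genes named for replicate 3 of 22Rv1 were chosen after their values were seen. The small RNA, protein and animal experiments of the study were not analysed here.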

Additional observations from a re-analysis of the deposited data

How the results depend on the processing

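The 4 comparisons that test the mimic called 0 of 8 members under every alternative run. Between the lines with NC-mimic the count was 3 of 8 and ranged from 2 to 8 when 1 library was left out, with 8 without replicate 3 of 22Rv1 and 2 to 4 under the other alternatives. With piR-4447944 mimic it was 6 of 8, ranged from 3 to 8 when 1 library was left out, and was 3 with all 12 libraries in one fit. Replicate numbers did not pair LNCaP libraries or the lines. With the replicate block the line counts became 2 (NC-mimic) and 5 (piR-4447944 mimic), and 0 in the 4 mimic comparisons. The cause of these changes was not tested.

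Of the members, NQO1 between the lines with NC-mimic turned from 0.47 to -0.94 with the replicate block and to -0.81 and -0.83 with limma on log2(TPM + 1) and log2(TPM + 0.1), and ranged from -2.11 to 0.98 when 1 library was left out. SRXN1 turned from 0.02 to -0.0155 without a low-count filter, -0.21 with the replicate block and -0.26 with limma on either scale (-0.257 and -0.264), and ranged from -0.76 to 0.30. GCLM ranged from -0.60 to 0.23. In LNCaP with the mimic, limma gave 0.16 and 0.17 for GCLC and 0.00307 and 0.00309 for KEAP1, and KEAP1 ranged from -0.0740 to 0.0322 without 1 library. In 22Rv1 with the mimic, limma gave 0.18 and 0.19 for NFE2L2. Without both replicate 3 libraries GCLC was at 0.10, GCLM at 0.16, NFE2L2 at 0.00739, NQO1 at 0.0626 and TXNRD1 at 0.0113. Leaving out 1 library of 22Rv1 gave -0.31 to 0.0351 for GCLC, -0.66 to 0.18 for GCLM, -1.77 to 0.68 for HMOX1, -0.11 to 0.0147 for NFE2L2, -2.53 to 0.82 for NQO1, -1.04 to 0.0306 for SRXN1 and -0.65 to 0.41 for TXNRD1. All of these members were uncalled with all libraries. On the TPM scale the median of all genes between the lines with NC-mimic lay at -0.105 with limma on log2(TPM + 1), against 0.0146 in the counts. Fold changes on that scale understate low genes. Of the named pathway genes, 80 values with NC-mimic and 74 of the line values under the other mimic stayed on the same side of the threshold, and 6 fell below it.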
